A study of Homo sapiens with 6 samples.

Results

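The 36 genes described here make cholesterol and fatty acids, regulate that synthesis or move sterols through the cell. They were chosen by name, as enzymes, regulators and transporters of these pathways, with earlier results of these data known. All 36 were found among the 20263 gene IDs of the count table. They fall into 5 groups: 7 early mevalonate steps, 11 late sterol steps, 5 SREBP regulators, 6 sterol transport and LXR genes, and 7 genes of fatty acid synthesis. The cells were U118, an established human malignant glioma line whose labels call it an astroblastoma, grown in medium with fetal bovine serum and sampled on day 2. Poly(A)-enriched RNA was sequenced in 6 libraries: 4 from cells transfected with siRNA that targets RIPK2, named siRIPK2_1 to siRIPK2_4, 1 from cells with a control siRNA, named siNC, and 1 named WT. RIPK2 is a kinase that carries signals from the NOD receptors to NF-kB. The labels do not say whether the 4 siRIPK2 libraries are different siRNAs or separate cultures. Every p-value therefore reflects only the spread between libraries, which may be technical. With each control as its own group, that spread comes from the siRIPK2 libraries alone. With both controls pooled, it also includes the difference between siNC and WT. Nor do the labels say whether the WT cells were mock transfected or untreated. In comparisons with WT the knockdown and the transfection therefore cannot be told apart.

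Cholesterol is built from acetyl-CoA through the mevalonate pathway, whose early enzymes lead to farnesyl diphosphate and whose late enzymes close and trim the sterol rings. The genes are switched on by SREBP transcription factors: when sterols run low in the endoplasmic reticulum, SCAP escorts the SREBP precursor to the Golgi, where it is cut, and when sterols are plentiful the INSIG proteins hold SCAP back. SREBP2, made from SREBF2, mainly drives the sterol genes, and SREBP1, made from SREBF1, mainly drives fatty acid genes, while oxysterols activate the LXR receptors that raise the exporters ABCA1 and ABCG1. SREBPs bind sterol regulatory elements, usually next to sites for the CCAAT-binding factor NF-Y and for SP1. Serum lipoproteins also supply cultured cells with sterol, and glioma cells are known for taking it up from outside.

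The promoter sequences of the genes were searched for short motifs. RefSeq promoter windows on GRCh38.p14, from 250 bases before to 50 bases after an annotated start, were at hand for 31 of the 36 genes; the other 5 are ACAT2, FDFT1, SQLE, ABCG1 and FASN. Exact matches on both strands were sought to CCAAT, to the classic sterol element TCACNCCAC, to the E-box CACGTG and to the SP1-type motif GGGCGG, and no match of one motif overlapped a match of another. CCAAT occurred in 21 of the 31 genes (67.7%), against 43.5% of 11059 tested genes with a window. By group, CCAAT was found in 8 of 9 late sterol genes, 5 of 6 early genes, 4 of 6 fatty acid genes, 2 of 5 regulators and 2 of 5 transport genes. GGGCGG occurred in 30 of 31 genes (96.8%), against 75.2% of tested genes. CACGTG occurred in 5 of 31 genes (16.1%), against 12.3%. TCACNCCAC matched in 1 gene, SREBF2 (3.23%), against 1.54% of tested genes. A match is only a description of the letters, and a missing match says nothing about whether SREBP binds there.

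The stretches below lie before the RefSeq start of 4 late sterol genes and INSIG1. GENCODE release 29 starts DHCR7 (base 71452868) and CYP51A1 (base 92134803) further upstream. The DHCR7 and CYP51A1 stretches therefore lie inside those genes in GENCODE, in bases outside the spliced transcripts. These 4 late genes were picked by their levels, which lay below both controls in every siRIPK2 library. INSIG1, an SREBP regulator, overlapped the controls. EBP also lay below both controls and has CCAAT matches, but no long enough stretch of its upstream bases lies outside transcripts. These 5 stretches are written 5′ to 3′ on the gene's strand and leave out bases that GENCODE release 29 places in a transcript. Capitals mark CCAAT or its complement ATTGG.
LSS, chr21:46228857-46229024, minus strand: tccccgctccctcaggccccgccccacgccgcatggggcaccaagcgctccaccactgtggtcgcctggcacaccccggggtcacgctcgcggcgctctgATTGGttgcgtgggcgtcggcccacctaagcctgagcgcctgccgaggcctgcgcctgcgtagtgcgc
DHCR7, chr11:71448436-71448643, minus strand: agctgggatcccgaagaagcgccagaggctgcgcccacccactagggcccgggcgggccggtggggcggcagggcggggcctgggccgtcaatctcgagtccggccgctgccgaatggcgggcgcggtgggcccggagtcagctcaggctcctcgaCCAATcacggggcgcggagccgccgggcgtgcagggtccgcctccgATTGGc
NSDHL, chrX:152830813-152830966, plus strand: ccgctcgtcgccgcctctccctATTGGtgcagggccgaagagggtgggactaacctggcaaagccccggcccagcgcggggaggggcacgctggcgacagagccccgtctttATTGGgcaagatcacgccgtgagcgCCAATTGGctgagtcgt
CYP51A1, chr7:92134531-92134603, minus strand: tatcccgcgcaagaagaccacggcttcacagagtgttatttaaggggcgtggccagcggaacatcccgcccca
INSIG1, chr7:155297628-155297775, plus strand: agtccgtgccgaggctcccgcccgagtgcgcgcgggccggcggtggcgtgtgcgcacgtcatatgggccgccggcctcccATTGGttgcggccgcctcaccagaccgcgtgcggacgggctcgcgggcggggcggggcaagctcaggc
NSDHL has 4 matches in its stretch, of which one pair overlaps as CCAATTGG. DHCR7 has 2, LSS and INSIG1 have 1 each, and CYP51A1 has none. A further pair of 30-base sites shows the sterol element of SREBF2, which begins 133 bases before its start, and the E-box of INSIG1, which begins 55 bases before its start, each in capitals. Distances are from the RefSeq start, and unlike the stretches both sites lie in bases that GENCODE release 29 places in a transcript. The INSIG1 site lies inside INSIG1 itself there, since GENCODE starts the gene upstream of it at base 155297776, and the SREBF2 site lies in SREBF2-AS1 on the opposite strand.
SREBF2, chr22:41832962-41832991, plus strand: tgacgcgccaTCACCCCACgcaccgcttcg
INSIG1, chr7:155297811-155297840, plus strand: gccgggcaggctCACGTGatgcgggccccg

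The libraries held 33540619 to 45309423 counts, so that 3 counts, taken as the detection floor, correspond to 0.0664 to 0.0935 CPM (counts scaled to the library's total, with TMM factors). This floor covers counting error only. Of the astrocyte and glioma markers, VIM stood at 3813 to 7572 CPM, CD44 at 224 to 556 CPM and SOX9 at 47.5 to 122 CPM, whereas GFAP stood at 0.53 to 1.09 CPM and S100B was at 0 in 5 of 6 libraries. The 9 markers of other cell types differed in level. PTPRC of leukocytes reached 0.11 CPM, EPCAM of epithelium 0.17 CPM and MOG of oligodendrocytes 0.056 CPM. The others were higher: ITGAM reached 0.19 CPM, KRT18 1.01 CPM, PECAM1 2.75 CPM and CDH5 4.19 CPM. CD68 stood at 91.1 to 164 CPM and SNAP25 at 4.12 to 5.45 CPM. SOX2 ranged from 0.75 to 14.0 CPM and NES from 18.5 to 73.1 CPM, both lowest in siNC. RIPK2 stood at 56.8 CPM in WT and 43.4 CPM in siNC, and the 4 siRIPK2 libraries held 3.86, 11.9, 6.27 and 4.32 CPM. Its siRIPK2 mean of 6.58 ± 3.67 CPM (SD, n = 4) was 15.1% of siNC and 11.6% of WT. The exact 2-sided permutation test of 2 controls against 4 siRIPK2 libraries gave p = 0.0667, the smallest this design allows. In edgeR's quasi-likelihood test the RIPK2 difference from siNC had a log2 fold change of -2.72 ± 0.53 (SE) and an adjusted p of 0.972, whereas DESeq2 gave an adjusted p of 0.00731.

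Most genes of the sterol pathway were somewhat lower in the siRIPK2 libraries, but no single gene passed the adjusted test. Against siNC, 27 of the 35 genes tested had a log2 fold change below 0, with a median of -0.33, whereas 48.3% of all 14306 genes tested were below 0 and their median was 0.02. Against WT, 24 of 35 were below 0 with a median of -0.26, against 48.1% and 0.01 for all genes. Against both controls together, 27 of 35 were below 0 with a median of -0.27, against 47.9% of 13901 genes and a median of 0.01. Without siRIPK2_3 that median was -0.18. These comparisons share the 4 siRIPK2 libraries and are not independent of each other. The genes were also chosen with earlier results of these data known, so these shares are a description only. Between the controls, siNC against WT, the median was 0.09 and 15 of 35 were lower, against 50.2% of all genes. In these bulk samples, fewer cells of a type and less RNA per cell cannot be told apart.

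No gene of the 35 had an edgeR adjusted p under 0.05 in any of the 4 comparisons, and neither did any other gene (0% of all genes tested in each). DESeq2 called 0.528% of all genes against siNC, 0.0629% against WT, 0.0769% between siNC and WT and 0.0841% against both controls, and none of the 35. At an unadjusted edgeR p under 0.05, 1 gene was lower against siNC (DHCR7), where 1.21% of all genes were lower and 3.56% higher. Against WT 1 gene was lower (INSIG1), where 0.419% of all genes were lower and 0.664% higher. Against both controls 4 genes were lower (ACAT2, LSS, CYP51A1 and INSIG1), where 1.23% of all genes were lower and 1.32% higher. None of the 35 was higher at that level in these 3 comparisons. Each control is a single library. Between them, siNC against WT, the 35 genes had edgeR log2 fold changes from -1.50 (SC5D) to 0.70. The range was -1.05 to 0.84 for siRIPK2 against siNC and -1.20 to 0.63 for siRIPK2 against WT. With the controls as separate groups, the fit takes its spread from the siRIPK2 libraries alone, and the biological coefficient of variation was 33.7%. With both controls pooled, the spread also includes the difference between siNC and WT, and the coefficient was 31.5%.

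**Figure D1:**
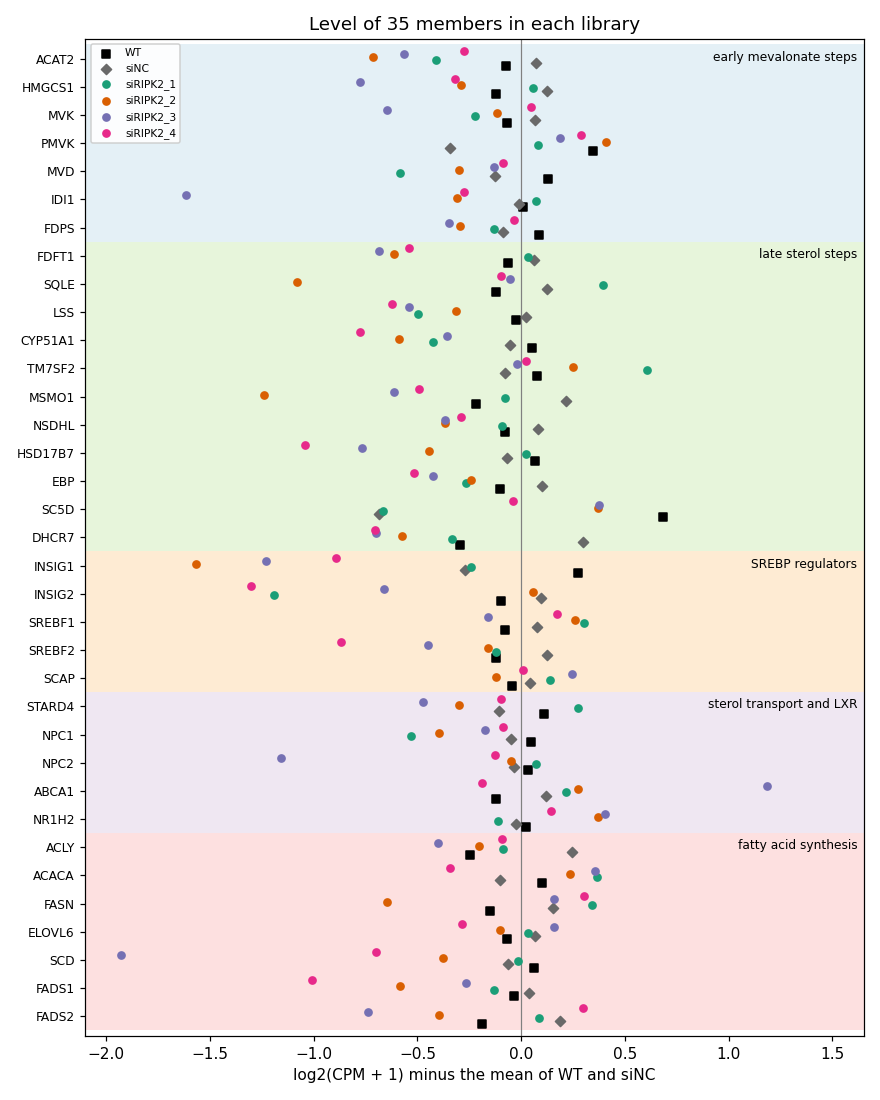
Level of 35 genes in each of the 6 libraries, as log2(CPM + 1) minus the mean of WT and siNC for that gene (x axis), grouped by step (y axis). Squares are WT, diamonds siNC and circles the 4 siRIPK2 libraries; among the late sterol steps most circles of siRIPK2_2 to siRIPK2_4 lie left of both controls, while SREBF1, SCAP, NR1H2 and ACACA have circles on both sides of 0.

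A count that needs no model asks in how many genes all 4 siRIPK2 libraries lay below both controls. This was so for 8 of 35 genes (22.9%), against 5.5% of all genes tested: ACAT2, LSS, CYP51A1, NSDHL, EBP, DHCR7, NPC1 and FADS1. All 4 lay above both controls in 0 of 35 genes, against 4.96% of all genes. Late sterol steps supplied 5 of the 8. This count, too, is over genes chosen with earlier results of these data known. The count depended on siRIPK2_1: without that library it was 17 of 35 (48.6%), against 8.67% of all genes. Without siNC it was 14 of 35, against 12.8% of all genes, and without WT 15 of 35, against 17.3%.

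Early mevalonate steps had median log2 fold changes of -0.29 against siNC and -0.29 against WT, with 6 and 7 of 7 genes below 0. ACAT2, an acetoacetyl-CoA thiolase that supplies the first intermediate, stood at 76.8 CPM in WT, 85.2 CPM in siNC, and 60.6, 49.0, 54.5 and 66.8 CPM in the siRIPK2 libraries. All 4 siRIPK2 values lay below both controls, and the mean of 57.7 ± 7.69 CPM (SD, n = 4) was 67.7% of siNC and 75.1% of WT. Its edgeR log2 fold change against both controls was -0.49 ± 0.21 (SE), with an unadjusted p of 0.0441 and an adjusted p of 1. ACAT2 shares exon positions with TCP1, a neighbouring gene, and the strand setting of the counting is not given in the sources used here.

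HMGCS1, which makes HMG-CoA, stood at 57.8 CPM in WT, 68.7 CPM in siNC, and 65.7, 51.4, 36.4 and 50.4 CPM in the siRIPK2 libraries, of which only siRIPK2_1 lay above WT. MVD, which decarboxylates mevalonate diphosphate, stood at 47.0 CPM in WT, 39.2 CPM in siNC, and 28.3, 34.7, 39.2 and 40.4 CPM in the siRIPK2 libraries, below WT in all 4 and overlapping siNC. IDI1, the isopentenyl diphosphate isomerase, stood at 29.5 CPM in WT, 29.05 CPM in siNC, and 30.8, 23.4, 8.88 and 24.0 CPM in the siRIPK2 libraries. The low IDI1 mean of 21.8 ± 9.22 CPM (SD, n = 4) therefore rests largely on siRIPK2_3. The mevalonate kinase MVK ranged from 20.2 to 33.8 CPM and the farnesyl diphosphate synthase FDPS from 85.2 to 115 CPM over the 6 libraries, both overlapping between groups. PMVK, which adds the second phosphate to mevalonate, was at 21.2 CPM in siNC, lower than in the other 5 libraries (28.9 to 36.5 CPM). It was the only early gene with a positive fold change against siNC (0.61 ± 0.32, SE, log2), and against WT its log2 fold change was -0.10 ± 0.30 (SE), both with an edgeR adjusted p of 1.

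Late sterol steps had median log2 fold changes of -0.49 against siNC, -0.35 against WT and -0.43 against both controls, with 9, 9 and 10 of 11 genes below 0. LSS, which closes the sterol rings by making lanosterol, stood at 159 CPM in WT, 165 CPM in siNC, and 114, 130, 111 and 105 CPM in the siRIPK2 libraries. All 4 lay below both controls, and the mean of 115 ± 10.7 CPM (SD, n = 4) was 69.9% of siNC and 72.2% of WT. Its edgeR log2 fold change against both controls was -0.49 ± 0.19 (SE), with an unadjusted p of 0.0293 and an adjusted p of 1. CYP51A1, the lanosterol demethylase, stood at 60.9 CPM in WT, 56.5 CPM in siNC, and 43.5, 38.6, 45.6 and 33.8 CPM in the siRIPK2 libraries. Its mean of 40.4 ± 5.28 CPM (SD, n = 4) was 71.4% of siNC and 66.3% of WT, and its edgeR log2 fold change against both controls was -0.54 ± 0.21 (SE; unadjusted p = 0.0318, adjusted p = 1). CYP51A1 has 3 named pseudogenes, and LSS has none.

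DHCR7, which makes cholesterol from 7-dehydrocholesterol in the final step of one branch, was a low gene: it stood at 4.19 CPM in WT, 6.83 CPM in siNC, and 4.06, 3.28, 2.92 and 2.92 CPM in the siRIPK2 libraries. All 4 lay below both controls, but siRIPK2_1 was only slightly below WT. The mean of 3.30 ± 0.538 CPM (SD, n = 4) was 48.3% of siNC and 78.6% of WT. Its edgeR log2 fold change against siNC was -1.05 ± 0.40 (SE; unadjusted p = 0.0311, adjusted p = 0.984), while against WT it was -0.35 ± 0.42 (SE). DHCR7 was 163% of its WT level in siNC, so the choice of control moves its fold change by more than any other late gene except SC5D. EBP, the sterol isomerase that shifts a ring double bond, stood at 50.1 CPM in WT, 57.9 CPM in siNC, and 44.7, 45.5, 39.9 and 37.3 CPM in the siRIPK2 libraries, all below both controls. NSDHL, which removes the C4 groups together with other enzymes, stood at 53.9 CPM in WT, 60.4 CPM in siNC, and 53.4, 44.0, 44.0 and 46.5 CPM in the siRIPK2 libraries, with siRIPK2_1 barely below WT.

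Other late genes overlapped between groups. SQLE, the squalene epoxidase and a rate-limiting enzyme of the late pathway, stood at 17.2 CPM in WT, 20.5 CPM in siNC, and 25.0, 8.36, 18.1 and 17.5 CPM in the siRIPK2 libraries, the highest and the lowest of all 6 both being siRIPK2 libraries. FDFT1, the squalene synthase that commits farnesyl diphosphate to sterols, stood at 71.8 CPM in WT, 78.5 CPM in siNC, and 76.8, 48.8, 46.2 and 51.3 CPM in the siRIPK2 libraries. Only siRIPK2_1 stayed at the control level for FDFT1. MSMO1, the sterol C4 methyl oxidase, stood at 34.8 CPM in WT, 47.4 CPM in siNC, and 38.5, 16.6, 26.2 and 28.6 CPM in the siRIPK2 libraries, of which siRIPK2_1 alone lay above WT. HSD17B7, a keto-steroid reductase with 2 named pseudogenes, ranged from 3.44 to 8.30 CPM in siRIPK2 against 8.58 CPM in WT and 7.73 CPM in siNC. SC5D, a desaturase, stood at 18.6 CPM in WT and 6.58 CPM in siNC, and the siRIPK2 values of 6.68 to 14.8 CPM lay between them. TM7SF2, which shares exon positions with VPS51, ranged from 2.49 to 4.62 CPM.

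**Figure D2:**
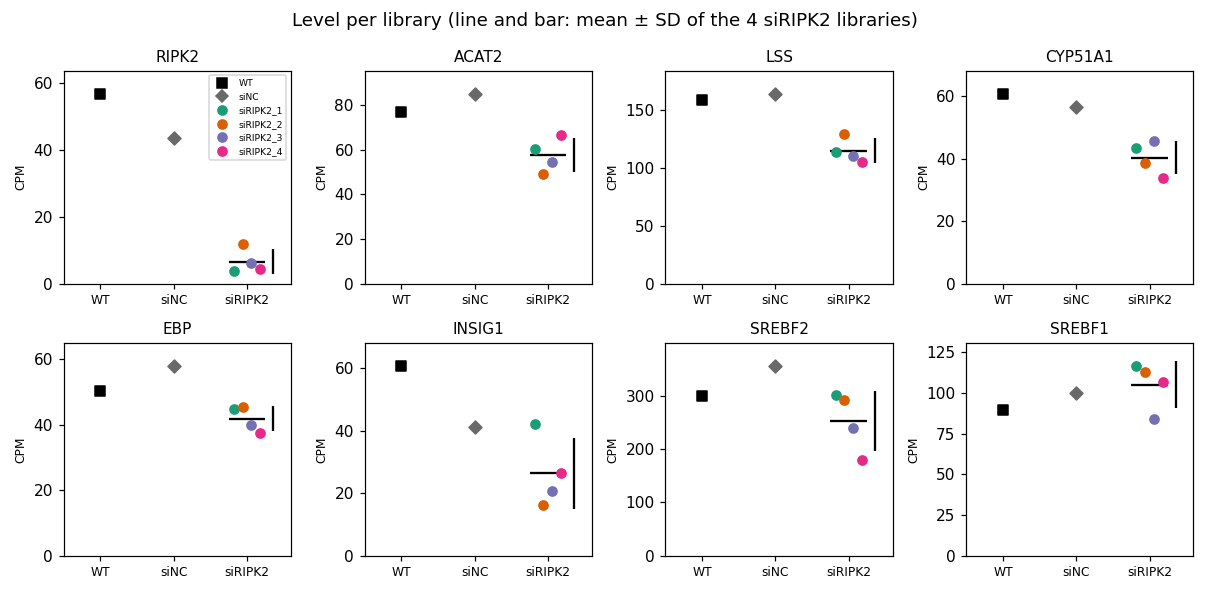
CPM of RIPK2 and 7 sterol genes in each library (y axes start at 0); squares are WT, diamonds siNC, circles the 4 siRIPK2 libraries, and the line and bar are their mean ± SD. ACAT2, LSS, CYP51A1 and EBP lie below both controls in all 4 siRIPK2 libraries, INSIG1 and SREBF2 overlap the controls through siRIPK2_1, and SREBF1 overlaps them on both sides.

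Among the SREBP regulators, the median log2 fold change was -0.49 against siNC and -0.25 against WT, and the group was split: 3 of 5 genes were below 0 and 2 were not. INSIG1, which retains SCAP and is itself an SREBP target, stood at 60.7 CPM in WT, 41.3 CPM in siNC, and 42.2, 16.2, 20.8 and 26.5 CPM in the siRIPK2 libraries. All 4 lay below WT, and siRIPK2_1 was level with siNC. The mean of 26.4 ± 11.3 CPM (SD, n = 4) was 64.1% of siNC and 43.5% of WT. INSIG1 had the largest edgeR log2 fold change of the 35 genes against WT, -1.20 ± 0.47 (SE; unadjusted p = 0.0341, adjusted p = 1), and against both controls, -0.95 ± 0.37 (SE; unadjusted p = 0.0304, adjusted p = 1). INSIG2, the related retention protein that is not driven by SREBP in the same way, stood at 19.2 CPM in WT, 22.1 CPM in siNC, and 8.45, 21.5, 12.7 and 7.76 CPM in the siRIPK2 libraries. For INSIG2 the library at control level was siRIPK2_2 rather than siRIPK2_1, and siRIPK2_3 and siRIPK2_4 lay below both controls for both genes.

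SREBF2 stood at 300 CPM in WT, 356 CPM in siNC, and 301, 293, 239 and 179 CPM in the siRIPK2 libraries. All 4 lay below siNC, 3 lay below WT, and its edgeR log2 fold change was -0.49 ± 0.34 (SE) against siNC and -0.25 ± 0.34 (SE) against WT. SREBF1 stood at 89.3 CPM in WT, 99.6 CPM in siNC, and 117, 113, 84.2 and 106 CPM in the siRIPK2 libraries, above both controls in 3 of 4. The mean for SREBF1 was 105 ± 14.5 CPM (SD, n = 4), with an edgeR log2 fold change of 0.08 ± 0.31 (SE) against siNC. SCAP ranged from 142 to 183 CPM in siRIPK2, around 149 CPM in WT and 159 CPM in siNC. Per base of exon, the SREBF2 to SREBF1 ratio was 3.58 for WT and 3.80 for siNC, and the siRIPK2 libraries had ratios of 2.74, 2.76, 3.02 and 1.79, all below both controls. The exact 2-sided permutation p was 0.2, or 0.6 after Benjamini-Hochberg adjustment over 3 such ratios chosen after the values were seen. The INSIG1 to INSIG2 ratio (p = 0.867, exact permutation) and the FADS1 to FADS2 ratio (p = 0.667, exact permutation) overlapped between the groups. SREBF1 shares exon positions with RAI1.

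**Figure D3:**
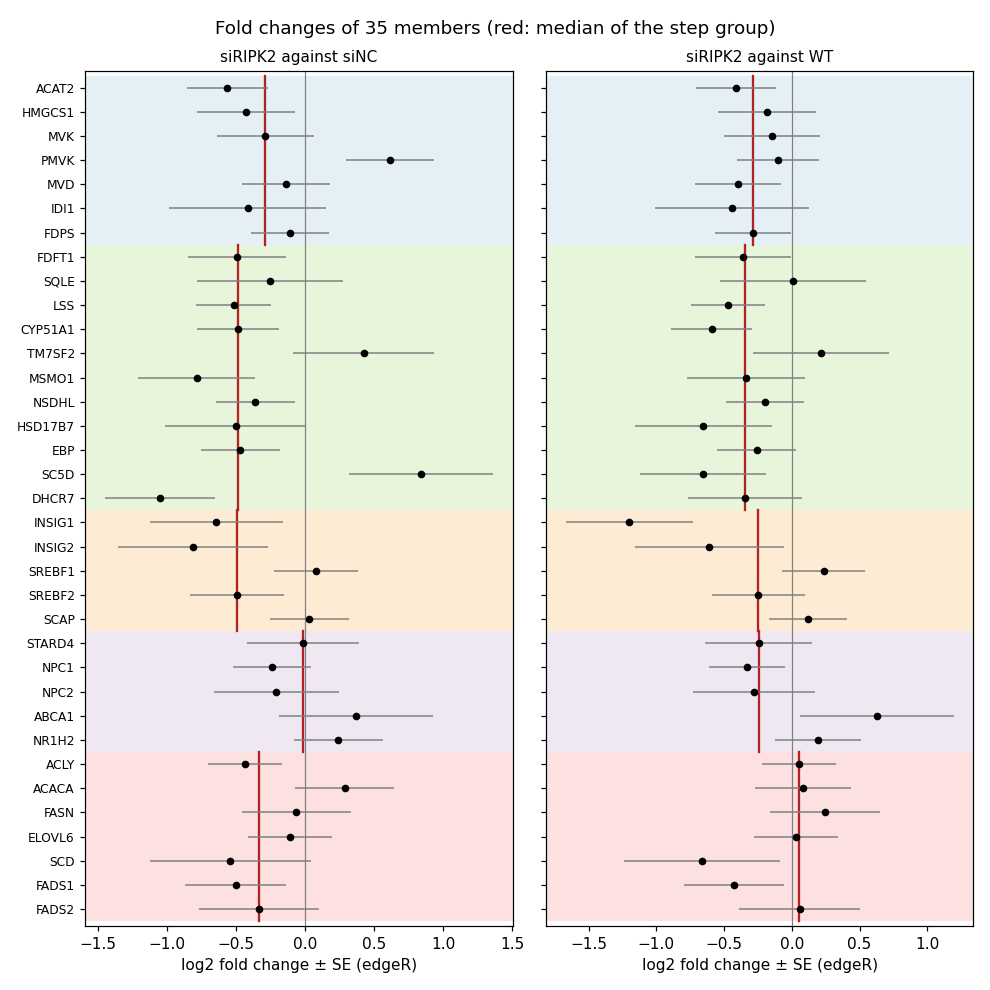
edgeR log2 fold change ± SE of 35 genes (y axis) for siRIPK2 against siNC (left) and against WT (right); shaded bands are the 5 groups and the red line is each group's median. Late sterol steps sit left of 0 except TM7SF2 and SC5D on the left and SQLE and TM7SF2 on the right, and the fatty acid median is -0.33 on the left and 0.05 on the right.

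Sterol transport and LXR genes showed no common direction: the median log2 fold change was -0.01 against siNC and -0.25 against WT, and 3 of 5 tested genes were below 0 in each. NPC1, the lysosomal membrane protein that releases cholesterol from lysosomes, stood at 654 CPM in WT, 612 CPM in siNC, and 438, 480, 561 and 596 CPM in the siRIPK2 libraries. All 4 lay below both controls, with a mean of 519 ± 72.4 CPM (SD, n = 4), 84.8% of siNC and 79.3% of WT. Its edgeR log2 fold change against both controls was -0.29 ± 0.20 (SE; adjusted p = 1), and here siRIPK2_1 was the lowest library and siRIPK2_4 the closest to the controls. NPC2, the soluble partner that hands cholesterol to NPC1, stood at 99.8 CPM in WT, 95.03 CPM in siNC, and 102, 94.2, 43.1 and 89.2 CPM in the siRIPK2 libraries, low in siRIPK2_3 alone. ABCA1, the LXR-driven cholesterol exporter, stood at 11.3 CPM in WT, 13.6 CPM in siNC, and 14.6, 15.2, 29.5 and 10.8 CPM in the siRIPK2 libraries, high in siRIPK2_3 alone. NR1H2, which encodes LXR-beta, stood at 82.6 CPM in WT, 79.9 CPM in siNC, and 75.0, 105, 108 and 89.8 CPM in the siRIPK2 libraries. The sterol carrier STARD4 ranged from 10.2 to 17.8 CPM in siRIPK2, around both controls. ABCG1, the other LXR-driven exporter, was at 0 in 5 libraries and at 0.055 CPM in siRIPK2_4, below the detection floor, and was not tested. NPC1 shares exon positions with RMC1, and NPC2 with ISCA2.

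For fatty acid synthesis the 2 controls gave different pictures. The median log2 fold change was -0.33 against siNC, with 6 of 7 genes below 0, but 0.05 against WT, with 2 of 7 below 0. ACLY, which makes cytosolic acetyl-CoA from citrate, stood at 332 CPM in WT, 466 CPM in siNC, and 370, 341, 298 and 368 CPM in the siRIPK2 libraries. All 4 lay below siNC and 3 lay above WT. FASN, the fatty acid synthase, stood at 373 CPM in WT, 461 CPM in siNC, and 526, 264, 464 and 512 CPM in the siRIPK2 libraries, low in siRIPK2_2 alone. ACACA, the acetyl-CoA carboxylase that makes malonyl-CoA, stood at 115 CPM in WT, 100 CPM in siNC, and 139, 127, 138 and 84.7 CPM in the siRIPK2 libraries, above both controls in 3 of 4.

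SCD, which inserts the first double bond into saturated chains, stood at 233 CPM in WT, 214 CPM in siNC, and 220, 172, 57.8 and 137 CPM in the siRIPK2 libraries. It was below WT in all 4, with a mean of 147 ± 68.4 CPM (SD, n = 4) whose spread came mostly from siRIPK2_3, and an edgeR log2 fold change of -0.60 ± 0.43 (SE; adjusted p = 1) against both controls. FADS1, a desaturase of polyunsaturated fatty acids, stood at 116 CPM in WT, 122 CPM in siNC, and 108, 79.0, 98.8 and 58.6 CPM in the siRIPK2 libraries, below both controls in all 4. Its edgeR log2 fold change against both controls was -0.46 ± 0.26 (SE; adjusted p = 1). FADS2, the neighbouring desaturase, which shares exon positions with FADS1 and FEN1, ranged from 16.8 to 35.4 CPM in siRIPK2 around 25.0 CPM in WT and 32.8 CPM in siNC. The elongase ELOVL6 ranged from 39.5 to 54.1 CPM in siRIPK2, around 46.1 CPM in WT and 50.8 CPM in siNC.

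The 4 siRIPK2 libraries were not alike. In siRIPK2_1, 13 of 35 genes (37.1%) lay below both controls, near the 37.7% of all genes tested. The corresponding counts were 26 (74.3%) in siRIPK2_2, 25 (71.4%) in siRIPK2_3 and 21 (60%) in siRIPK2_4, against 34.7%, 36.1% and 35.6% of all genes. siRIPK2_1, where the sterol genes were nearest the controls, had the lowest RIPK2 level of the 4, 3.86 CPM, and siRIPK2_2, with the highest RIPK2 level, 11.9 CPM, had the most genes below both controls. The part of the RIPK2 level in this order was not tested.

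**Figure D4:**
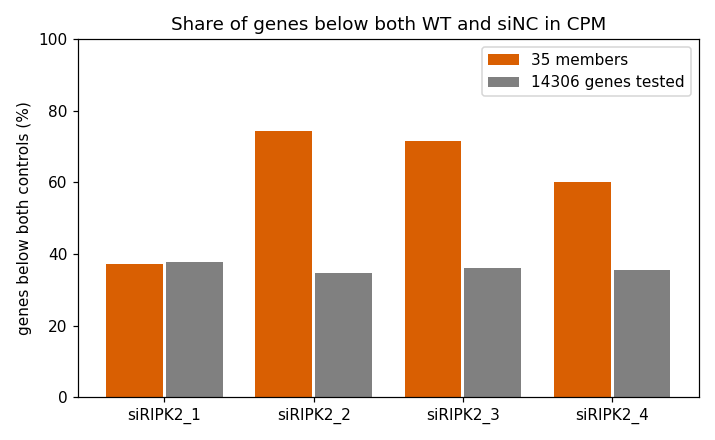
Share of genes (y axis, percent, from 0) whose CPM in a given siRIPK2 library (x axis) lay below both WT and siNC, for the 35 sterol and fatty acid genes (orange) and all 14306 genes tested (grey). The orange bar is level with the grey one in siRIPK2_1 (37.1% and 37.7%) and taller in the other libraries.

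Early and late steps did not separate from each other in the same direction in every library. On the log2(CPM + 1) scale, with each gene centred on its mean over the 6 libraries, the early median minus the late median was 0.03 for WT and -0.08 for siNC, and the siRIPK2 libraries 1 to 4 had differences of -0.16, 0.11, -0.05 and 0.34. The difference of siRIPK2_4 was the largest. In that library the late median difference from siNC was -0.62 and the early one -0.02, whereas in siRIPK2_3 they were -0.53 and -0.64. Regulators followed the late steps in siRIPK2_3 and siRIPK2_4, with median differences from siNC of -0.57 and -0.62, and were nearer 0 in siRIPK2_1 (0.03) and siRIPK2_2 (-0.17). Transport genes had median differences from siNC between -0.13 and 0.09 in all 4 libraries.

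**Figure D5:**
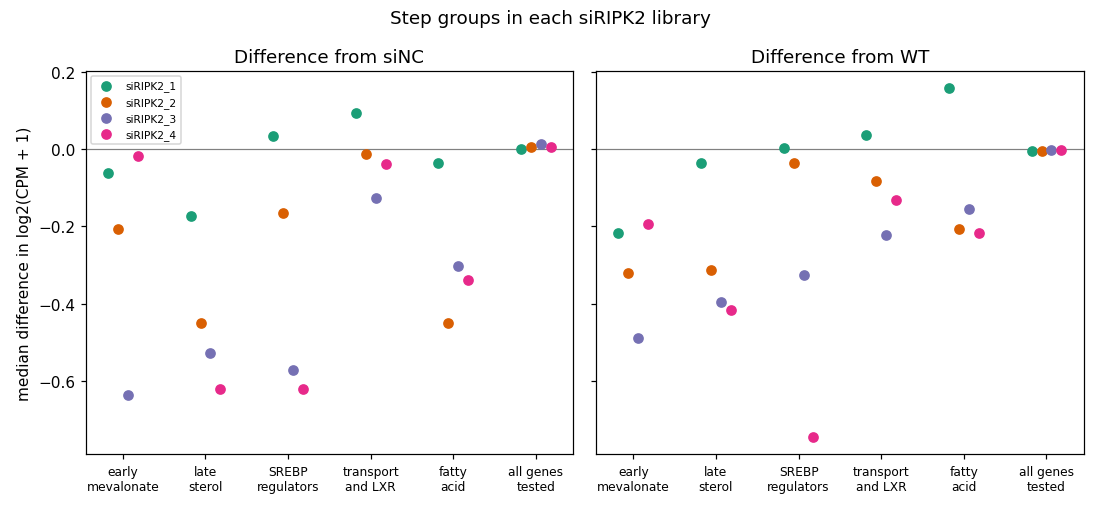
Median difference in log2(CPM + 1) between each siRIPK2 library and siNC (left) or WT (right) for the 5 gene groups and for all genes tested (x axis). Circles are the 4 siRIPK2 libraries; all genes lie at 0, the late sterol group lies below 0 in every library, and siRIPK2_1 is the highest or next to the highest circle in each group.

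Levels between genes were compared as RPKM, which divides CPM by exon length in kilobases, averaged over the 6 libraries. ACLY was the highest at 69.5 RPKM, followed by NPC1 at 55.1, FASN at 46.3, SREBF2 at 36.8, SCD at 32.1 and NPC2 at 31.7 RPKM. The lowest detected were ABCA1 at 1.39, HSD17B7 at 1.33, DHCR7 at 0.969 and TM7SF2 at 0.917 RPKM. The enzymes of the late steps thus spanned from 0.917 RPKM to 25.2 RPKM (NSDHL), and early steps from 4.50 RPKM (MVK) to 26.8 RPKM (FDPS).

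Genes of neighbouring pathways, in 4 further lists, gave no call at an edgeR adjusted p under 0.05. In the isoprenoid branch, which uses farnesyl diphosphate for ubiquinone, dolichol and protein prenylation, 5 of 12 genes were below 0 against siNC, with a median log2 fold change of 0.13. RABGGTA and RABGGTB, the subunits of the Rab prenyl transferase, had opposite signs against both controls, -0.45 ± 0.23 and 0.32 ± 0.26 (SE, log2). Of the genes that process SREBP or degrade sterol-regulated proteins, 3 of 10 were below 0 against siNC, with a median of 0.09. ERLIN2, an endoplasmic reticulum protein of that degradation pathway, stood at 93.2 CPM in WT, 50.4 CPM in siNC, and 117, 89.3, 111 and 99.4 CPM in the siRIPK2 libraries, so that siNC was the library apart. PAQR3, a Golgi anchor of SCAP, had a log2 fold change of 0.30 ± 0.33 (SE) against both controls.

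In sterol uptake, storage and exchange, 10 of 14 genes were below 0 against siNC (median -0.04) and 6 of 14 against WT (median 0.02). SCARB1, a lipoprotein receptor that takes up cholesteryl ester, stood at 37.7 CPM in WT, 41.1 CPM in siNC, and 36.2, 21.3, 18.4 and 28.2 CPM in the siRIPK2 libraries, below both controls in all 4. MYLIP, an LXR-driven ubiquitin ligase that removes lipoprotein receptors, stood at 7.35 CPM in WT, 8.95 CPM in siNC, and 15.9, 10.4, 12.3 and 10.6 CPM in the siRIPK2 libraries, above both controls in all 4. Its edgeR log2 fold change against both controls was 0.60 ± 0.29 (SE; unadjusted p = 0.0711, adjusted p = 1). In fatty acid activation, elongation and lipid assembly, 12 of 18 genes were below 0 against siNC (median -0.10) and 13 of 18 against WT (median -0.08). HSD17B12, a reductase of fatty acid elongation, stood at 23.0 CPM in WT, 20.04 CPM in siNC, and 7.72, 18.8, 14.0 and 8.14 CPM in the siRIPK2 libraries. ACSS2, which makes acetyl-CoA from acetate, stood at 44.2 CPM in WT, 49.3 CPM in siNC, and 34.3, 43.6, 39.4 and 34.2 CPM in the siRIPK2 libraries. Both lay below the 2 controls in all 4 libraries, ACSS2 in siRIPK2_2 only slightly. They were the only 2 of the 18 genes to do so, and 0 lay above. Of the 14 uptake, storage and exchange genes, 1 lay below both controls (SCARB1) and 1 above (MYLIP). Among all genes tested, 5.5% lay below and 4.96% above.

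Gene length moved with the siNC contrast. With all genes tested ranked by exon length and cut into 4 equal bins, the median log2 fold change of siRIPK2 against siNC went from -0.06 in the shortest to 0.10 in the longest, and the 35 genes fell 5, 13, 9 and 8 into these bins. With offsets for length and GC content, the median of the 35 genes against siNC was -0.34, compared with -0.33 without them.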

How the data were processed

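RNA was sequenced in 6 libraries of U118 cells, and the authors deposited a table of unnormalised counts, 1 row per Ensembl gene. GRCh38, HISAT2, Trimmomatic, bedtools and FastQC are named in the submitters' processing notes; versions, annotation and strand setting: not given in the sources used here. Symbols were matched for 20148 of 20263 IDs, and exon lengths came from GENCODE release 29. Of the 36 genes, 8 share exon positions with another listed gene and 5 have named pseudogenes, so reads may be split between them. The genes and lists were chosen with earlier results of these data known.

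The test was edgeR's quasi-likelihood F test (edgeR 4.0.16, R 4.3.3) with TMM factors, a filterByExpr minimum count of 10 and Benjamini-Hochberg adjustment over all genes tested (threshold 0.05). A fit with 3 groups (3 residual degrees of freedom, all from siRIPK2) served the comparisons of siRIPK2 with each control and of the controls with each other, and a fit with 2 groups (4 residual degrees of freedom) gave siRIPK2 against both controls. The tests were also run on simulated counts with known changes, whose detection rates are not reported here. Of the 36 genes, 35 passed the filter, and ABCG1 did not. Levels are CPM with TMM factors, with a pseudocount of 1 on the log2 scale. Permutation tests were exact and 2-sided, with 15 ways to choose 2 of 6 libraries. Alternatives were DESeq2 1.42.0, limma-voom (limma 3.58.1), DESeq2 size factors in edgeR, library size only, no filter, length and GC offsets (mgcv 1.9.3) and leaving out libraries. Genes with values in every library were 7 chosen for their role, up to 4 per group with the lowest unadjusted p against both controls and a mean of at least 1 CPM, and up to 2 per neighbouring list by the same rule. NSDHL, FDFT1 and MSMO1 were added after their values were seen.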

Additional observations from a re-analysis of the deposited data

Results flagged for a closer look

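Among 52 genes checked over the 4 siRIPK2 libraries, 3 had 1 library set far apart from the others (its gap to the nearest value, as a share of the whole range, exceeded Dixon's 95% limit for 4 values); chance alone sets about 1 in 20 genes apart at this limit. FDFT1, the squalene synthase, stood at 76.8 CPM in siRIPK2_1, against 46.2 to 51.3 CPM in the other 3. ABCG1, a sterol exporter, stood at 0.055 CPM in siRIPK2_4 and at 0 in the others, all below the floor of 3 counts. RABGGTB, a subunit of the Rab prenyl transferase, stood at 61.7 CPM in siRIPK2_3, against 40.0 to 43.3 CPM in the other 3.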

How the results depend on the processing

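No paired analysis was possible because WT and siNC are 1 library each and carry no replicate numbers. None of the 35 sterol and fatty acid genes passed an adjusted p of 0.05 under any alternative run. Over all genes, where edgeR called 0, DESeq2 called 74 against siNC, 9 against WT, 11 between siNC and WT and 11 against both controls; against WT, no filter and limma-voom called 1 each; against both controls, leaving out 1 siRIPK2 library gave 0 to 2. RIPK2 passed in DESeq2 (log2 fold change -2.72 against siNC, -3.10 against WT and -2.92 against both controls), and without siRIPK2_2 against both controls (-3.38, adjusted p 0.0431; the range over left-out siRIPK2 libraries was -3.38 to -2.75). The count of genes below both controls in every siRIPK2 library was 8 to 17 of 35 when 1 siRIPK2 library was left out, against 8.67% to 10.8% of all genes. It was 14 of 35 without siNC, against 12.8% of all genes, and 15 of 35 without WT, against 17.3%. These left-out runs of the count were alternatives chosen after seeing the data.

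The median of the 35 genes kept its sign in all 4 comparisons. Group medians were judged by the SD, between siRIPK2 libraries, of the median of all 35 genes, not by each group's own spread. This SD was 0.140 against WT and 0.136 against both controls. Larger moves were seen for transport against WT (-0.03 with no filter, -0.07 without siRIPK2_3) and against both controls (0.04 with no filter). The unfiltered transport median is over 6 genes rather than 5, since it adds ABCG1, which lay below the detection floor. Fatty acid synthesis against both controls also moved by more than this SD (0.06 without siNC, -0.34 without WT). Single genes, none of them called, changed sign as follows. Against siNC, FASN was at 0.0085 by library size, and with 1 siRIPK2 library left out in turn FASN ranged from -0.17 to 0.12, ABCA1 from -0.0086 to 0.54, NPC2 from -0.35 to 0.0020 and PAQR3 from -0.090 to 0.23. PAQR3 was at -0.36 with length and GC offsets. Against WT, SQLE was at -0.10 in limma-voom and ranged from -0.24 to 0.23, and RABGGTB from -0.043 to 0.19, over left-out siRIPK2 libraries. Between siNC and WT, length and GC offsets gave 0.062 for IDI1, 0.070 for HSD17B12 and -0.039 for LSS, and library size only gave -0.028 for LSS and -0.0018 for FADS1. Against both controls, SQLE ranged from -0.38 to 0.097 and FASN from -0.024 to 0.26 over left-out siRIPK2 libraries. Without siNC, SQLE was at 0.0088 and ACLY at 0.059, and without WT FASN was at -0.071. Over left-out siRIPK2 libraries the log2 ratio of INSIG1 to INSIG2 ranged from -0.59 to 0.32, and that of FADS1 to FADS2 from -0.58 to 0.033. The cause of these changes was not tested. With 1 library per control, differences of the size seen here could not be separated from the spread between libraries.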
